A study of Mus musculus with 16 samples.

Results

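The RNA levels of 9 genes that write, copy, oxidise, remove or read DNA methylation were followed through 16 mouse CD4+ T cell libraries. The genes were Dnmt1, Dnmt3a, Dnmt3b, Uhrf1, Tet1, Tet2, Tet3, Tdg and Mbd2, chosen by name from the 53090 genes listed in each library's table, and all 9 passed the filter on low counts in every comparison. Naïve splenic CD4+ T cells, taken fresh (Tn), were set against cells that had been activated for 48 h by anti-CD3/CD28 antibodies together with recombinant human TGF-beta and recombinant mouse IL-2 (Treg). Both states were sampled from WT and from Aim2-/- mice, and each of the resulting 4 groups held 4 libraries. Aim2 encodes a cytosolic sensor of double-stranded DNA, and the study asked whether it has a role inside CD4+ T cells during regulatory T cell differentiation.

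DNA methylation in mammals is laid down on the cytosine of CpG pairs. The maintenance enzyme DNMT1, brought to newly replicated DNA by UHRF1, copies the pattern onto the daughter strand, while DNMT3A and DNMT3B methylate sites anew. TET1, TET2 and TET3 oxidise methylcytosine, which can then be diluted by replication or excised by the glycosylase TDG, and MBD2 is a reader that binds methylated CpG. In regulatory T cells, demethylation of a conserved intronic element of Foxp3, the lineage-defining transcription factor, is known to accompany stable Foxp3 expression. RNA-seq measures the transcripts of these genes and not methylation itself.

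The Tn libraries came from WT and Aim2-/- cells that had not been cultured, and the Treg libraries from cells of the same genotypes after culture. No library of cells activated without TGF-beta was part of the design, so that activation, proliferation and exposure to TGF-beta cannot be told apart in the comparison of Treg with Tn. The labels name no T cell-restricted Cre for the Aim2-/- allele, and the altered part of the gene is not given in the sources used here. The labels number the libraries of a group from 1 to 4 but do not say whether each came from a separate mouse or culture, and p-values measure the spread between these libraries, which may be technical. In bulk RNA, fewer cells expressing a gene and less RNA per cell cannot be told apart.

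Libraries held 22516424 to 34533316 counts, and levels are given as CPM, counts scaled to a common library size, after TMM, a normalization that sets the bulk of genes equal between libraries. Aim2 itself averaged 35.1 CPM in WT Tn against 7.41 CPM in Aim2-/- Tn, and 39.9 CPM in WT Treg against 9.20 CPM in Aim2-/- Treg, with no overlap between genotypes, and Aim2 RNA was still counted in all Aim2-/- libraries (6.61 to 10.8 CPM). Cd4 was at 817 to 983 CPM in Tn and 369 to 413 CPM in Treg, and Foxp3 rose from 1.98 to 4.02 CPM in Tn to 279 to 574 CPM in Treg. Markers of other cells were low: summed over each list, 6 B cell genes gave at most 3.12 CPM and 6 erythroid genes at most 8.08 CPM in any library, with the B cell gene Ms4a1 at 0 throughout. The 8 myeloid genes summed to 23.3 to 39.4 CPM, most of it Cst3 at 19.1 to 31.4 CPM, with the granulocyte gene S100a8 at 0 throughout, and both CD8 genes together reached at most 12.3 CPM. WT Tn replicates 3 and 4 stood apart from the other Tn libraries for Ctla4, at 12.8 and 17.6 CPM against 64.5 to 80.6 CPM. They also differed from WT Tn replicates 1 and 2 across genes. Chi-square per degree of freedom between the counts of 2 libraries was 13.5 for replicates 1 and 2 and 11.5 for replicates 3 and 4. Across these pairs it was 73.3 to 94.2, against 21.9 to 62.9 between Aim2-/- Tn libraries. In Aim2-/- Treg it was 10.35 for replicates 1 and 2, 13.55 for replicates 3 and 4, and 21.65 to 49.47 across these pairs. In WT Treg the respective values were 11.73, 25.36 and 19.36 to 40.46. The cause of these differences between replicates was not tested. Culture and genotype comparisons were repeated within replicates 1 and 2 and within replicates 3 and 4.

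Start regions are shown for the 2 genes that rose most in culture and for Tet1, the gene that fell most. RefSeq windows on GRCm38.p6, 250 bases before to 50 bases after each annotated start, were found for 8 of the 9 genes (13 windows), with none for Mbd2. Each was searched on both strands for TTTGGCGC, TTTCGCGC, TTTCCCGC and TTTGCCGC, forms of the element known to be bound by E2F factors, which drive genes of the G1 to S transition. Of all 32851 windows 744 (2.26%) held at least 1 of them. The matches are in capitals in a start region of Dnmt1 (chr9:20952574-20952873, minus strand, start 3 of those listed), one of Uhrf1 (chr17:56304063-56304362, plus strand, start 2 of those listed) and, with no match, that of Tet1 (chr10:62887275-62887574, minus strand).
Dnmt1: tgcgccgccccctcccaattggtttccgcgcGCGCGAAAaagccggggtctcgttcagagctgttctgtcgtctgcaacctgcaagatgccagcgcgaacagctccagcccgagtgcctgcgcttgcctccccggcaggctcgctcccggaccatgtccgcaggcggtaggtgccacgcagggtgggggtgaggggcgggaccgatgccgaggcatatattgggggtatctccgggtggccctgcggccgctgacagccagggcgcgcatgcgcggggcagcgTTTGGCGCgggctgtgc
Uhrf1: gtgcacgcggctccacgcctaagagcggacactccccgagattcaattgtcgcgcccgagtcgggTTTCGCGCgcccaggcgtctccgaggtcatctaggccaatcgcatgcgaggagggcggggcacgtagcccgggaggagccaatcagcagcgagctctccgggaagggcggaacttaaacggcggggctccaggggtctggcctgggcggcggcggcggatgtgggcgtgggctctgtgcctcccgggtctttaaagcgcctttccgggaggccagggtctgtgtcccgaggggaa
Tet1: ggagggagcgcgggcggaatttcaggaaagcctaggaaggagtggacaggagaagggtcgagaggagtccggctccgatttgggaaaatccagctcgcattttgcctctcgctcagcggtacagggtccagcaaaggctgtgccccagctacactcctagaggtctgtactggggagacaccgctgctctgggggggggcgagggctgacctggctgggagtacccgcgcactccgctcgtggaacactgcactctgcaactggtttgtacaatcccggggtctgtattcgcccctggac
In Dnmt1, TTTCGCGC lay on the opposite strand 219 bases before start 3 and TTTGGCGC lay 33 bases after it. In Uhrf1, TTTCGCGC lay 185 bases before start 2. These starts are the most downstream of those listed for each gene, and the matches lie downstream of the other listed starts. The other 11 windows of these genes held none of the 4 forms. Among the 16 S phase genes used for comparison, 13 had a window and 6 of these held a match (Mcm3, Mcm5, Mcm6, Mcm7, Cdc6 and Cdt1). Of all 27025 genes with a window, 704 (2.6%) held a match. The printed Dnmt1 and Uhrf1 windows each held 33 CpG and the Tet1 window 17, against a median of 7 over all windows. The other Dnmt1 windows held 2 and 12 and the other Uhrf1 window 12, and windows without a match held up to 57 (Tet2). A match describes the letters and not binding.

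Culture of WT cells raised Uhrf1, which brings DNMT1 to DNA, the writers of methylation and the glycosylase, and lowered the oxidising enzyme Tet1. Uhrf1 was 67.8-fold higher and Dnmt1 4.41-fold higher in Treg than in Tn, Tdg, Dnmt3b and Dnmt3a were 3.18-, 2.64- and 1.91-fold higher, and Tet1 was 10.4-fold lower. Tet3 and Mbd2 were lower by 1.34- and 1.17-fold, and Tet2 did not pass the test. CPM gives RNA relative to that of other genes, so small falls need not mean less RNA per cell. By the quasi-likelihood test of edgeR, Benjamini-Hochberg adjusted over all genes, 8 of the 9 genes passed 0.05 (5 higher and 3 lower). Of 13675 genes tested 76.9% passed (37.7% higher and 39.2% lower), so that being called was common in this comparison. For 8 of the 9 genes, all but Tet2, the Tn and Treg libraries did not overlap, as was the case for 72.9% of all genes.

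**Figure D1:**
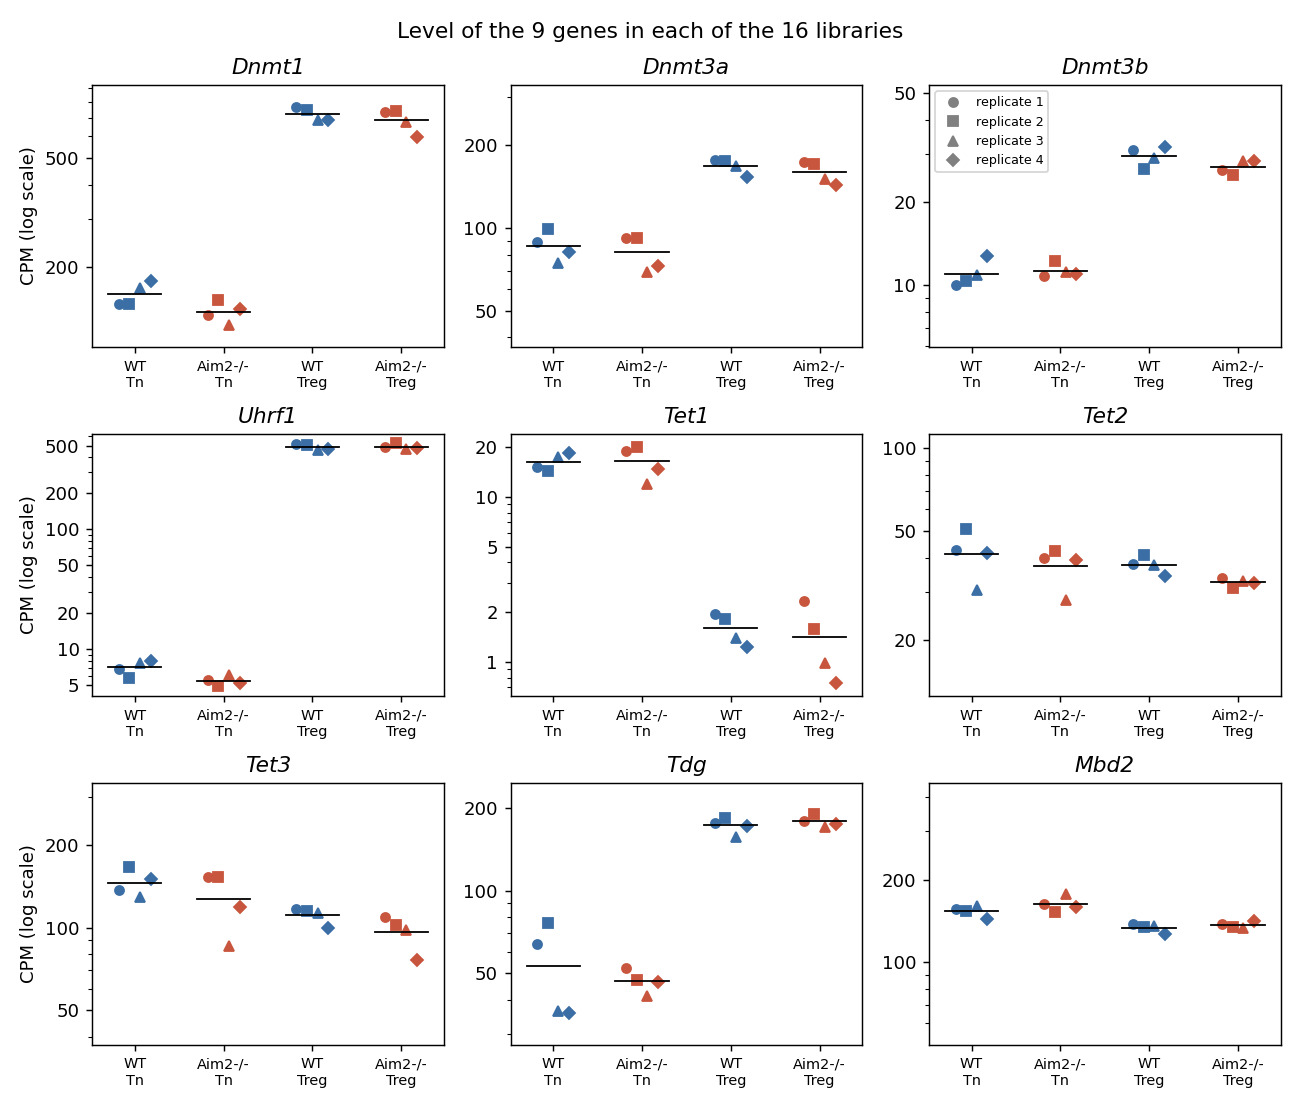
Levels of the 9 genes in each library, as CPM on a log axis whose range differs between panels, for WT (blue) and Aim2-/- (red) Tn and Treg cells; marker shapes give the replicate number and horizontal lines the mean of 4 libraries. Uhrf1 and Tet1 moved furthest between Tn and Treg, in opposite directions, and Tdg in WT Tn split into 2 higher and 2 lower libraries.

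Uhrf1 (ENSMUSG00000001228, chromosome 17, 56303321 to 56323486, plus strand, GRCm38), which recognises hemimethylated CpG and brings DNMT1 to it, had the largest change of the 9. Its level was 6.84, 5.78, 7.65 and 7.98 CPM in WT Tn replicates 1 to 4 and 513, 509, 463 and 471 CPM in WT Treg. All Treg libraries lay far above all Tn libraries, and within each state the replicates were close. The log2 fold change was 6.08 (SE 0.12, adjusted p = 5.1e-10), and it was the 247th largest rise of 13675 genes. In Aim2-/- cells the level went from 5.51, 4.89, 6.12 and 5.22 CPM in Tn to 489, 524, 468 and 482 CPM in Treg, a log2 fold change of 6.49 (SE 0.10, adjusted p = 2.6e-12). The counts of Uhrf1 were not whole in 9 of 16 libraries, as RSEM gives where reads map to more than 1 gene, so its counts carry that uncertainty.

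Dnmt1 (ENSMUSG00000004099, chromosome 9, 20907209 to 20959888, minus strand), the maintenance methyltransferase, stood at 147, 147, 169 and 179 CPM in WT Tn and at 765, 747, 689 and 690 CPM in WT Treg. The groups did not overlap. Replicates 3 and 4 were the higher WT Tn libraries and the lower WT Treg libraries. Treg exceeded Tn by 2.14 on the log2 scale (SE 0.08, adjusted p = 1.8e-08), by 2.38 from replicates 1 and 2 alone and by 1.96 from replicates 3 and 4 alone. Aim2-/- libraries went from 134, 153, 124 and 141 CPM to 735, 743, 679 and 595 CPM, a log2 fold change of 2.31 (SE 0.10, adjusted p = 3.3e-09). Per kilobase of exon, Uhrf1 RNA was 0.0761 ± 0.0055 (SD, n = 4) times that of Dnmt1 in WT Tn and 1.17 ± 0.011 times that of Dnmt1 in WT Treg, with 0.0691 ± 0.013 and 1.24 ± 0.11 in the Aim2-/- groups.

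Dnmt3a (ENSMUSG00000020661, chromosome 12, 3806007 to 3914443, plus strand), a de novo methyltransferase, was measured at 89.1, 99.3, 74.9 and 82.2 CPM in WT Tn and 177, 175, 168 and 154 CPM in WT Treg. Every Treg library exceeded every Tn library. Its log2 fold change was 0.93 (SE 0.10, adjusted p = 1.2e-05) in WT and 0.96 (SE 0.12, adjusted p = 1.2e-05) in Aim2-/- cells, whose libraries held 91.9, 92.2, 69.4 and 73.1 CPM in Tn and 174, 171, 151 and 144 CPM in Treg. Dnmt3b (ENSMUSG00000027478, chromosome 2, 153649450 to 153687730, plus strand) is the other de novo enzyme. It was at 9.99, 10.4, 10.9 and 12.7 CPM in WT Tn and 31.1, 26.4, 29.1 and 31.9 CPM in WT Treg, again without overlap. Its log2 fold change was 1.40 (SE 0.11, adjusted p = 1.5e-06) in WT and 1.25 (SE 0.09, adjusted p = 2.1e-07) in Aim2-/- cells, where it went from 10.8, 12.3, 11.2 and 11.0 CPM to 26.3, 25.3, 28.2 and 28.2 CPM. CPM of genes of unlike length cannot be compared directly. Per kilobase of exon, Dnmt3a RNA was 2.44 ± 0.47 (SD, n = 4) times that of Dnmt3b in WT Tn and 1.76 ± 0.23 times in WT Treg. This ratio rests on the length assigned to each gene. With the median length of annotated transcripts, Dnmt3a was at 105.3 and Dnmt3b at 2.68 CPM per kb in WT Tn. In WT Treg they were at 205.5 and 7.23. With the longest coding transcript they were at 8.92 and 2.545 in WT Tn and at 17.4 and 6.86 in WT Treg.

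Tet1 (ENSMUSG00000047146, chromosome 10, 62804570 to 62908996, minus strand), a methylcytosine dioxygenase, fell. It was at 15.3, 14.3, 17.6 and 18.4 CPM in WT Tn and at 1.96, 1.82, 1.39 and 1.22 CPM in WT Treg. The groups lay far apart, and in both genotypes replicates 3 and 4 were the lowest Treg libraries. On the log2 scale the change was -3.38 (SE 0.18, adjusted p = 1.3e-07) in WT. In Aim2-/- cells the levels were 18.9, 20.1, 12.1 and 14.8 CPM in Tn and 2.34, 1.58, 0.977 and 0.743 CPM in Treg, with a log2 fold change of -3.56 (SE 0.32, adjusted p = 1.8e-06). The lowest count behind any of these values was 20, in the last of these libraries, so the Treg levels of Tet1 carry more counting error than those of the other members.

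The 2 other TET enzymes moved little. Tet3 (ENSMUSG00000034832, chromosome 6, 83362373 to 83459084, minus strand) was at 137, 166, 129 and 151 CPM in WT Tn and 117, 114, 113 and 99.9 CPM in WT Treg. No Treg library reached the lowest Tn library, and the log2 fold change was -0.42 (SE 0.09, adjusted p = 0.0021). Among Aim2-/- libraries it was at 152, 152, 86.0 and 119 CPM in Tn and 109, 102, 97.7 and 76.0 CPM in Treg. Here the groups overlapped because Aim2-/- Tn replicate 3 was low, and the same log2 fold change of -0.42 (SE 0.18, 95% interval -0.82 to -0.01) did not pass the test (adjusted p = 0.057). Without that library the change was -0.62 (adjusted p = 0.0026), and without Aim2-/- Tn replicate 4 it was -0.51 (adjusted p = 0.043). From replicates 1 and 2 alone it was -0.53 (adjusted p = 0.0015) and from replicates 3 and 4 alone -0.24 (adjusted p = 0.25).

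Tet2 (ENSMUSG00000040943, chromosome 3, 133463679 to 133545139, minus strand) was at 42.7, 50.7, 30.5 and 41.8 CPM in WT Tn and 37.9, 41.0, 37.7 and 34.5 CPM in WT Treg. The Treg libraries fell within the range of the Tn libraries, which was set by the high replicate 2 and the low replicate 3. The log2 fold change was -0.17 (95% interval -0.48 to 0.15, adjusted p = 0.30). Aim2-/- libraries held 39.9, 42.3, 28.02 and 39.2 CPM in Tn and 33.8, 31.0, 33.0 and 32.4 CPM in Treg, a log2 fold change of -0.21 (95% interval -0.48 to 0.06, adjusted p = 0.13). Replicate 3 was the lowest Tn library in both genotypes. Without it the change was -0.29 (adjusted p = 0.023) in WT and -0.38 (adjusted p = 0.0012) in Aim2-/- cells.

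Tdg (ENSMUSG00000034674, chromosome 10, 82629828 to 82650799, plus strand), the glycosylase that excises oxidised methylcytosine, was at 63.7, 76.0, 36.5 and 35.8 CPM in WT Tn and 176, 184, 157 and 172 CPM in WT Treg. WT Tn replicates 1 and 2 were well above replicates 3 and 4, the libraries that also held less Ctla4, and all were below every Treg library. Its log2 fold change was 1.67 (SE 0.24, adjusted p = 0.00015), with 1.39 from replicates 1 and 2 alone and 2.16 from replicates 3 and 4 alone. In Aim2-/- cells, Tn libraries were at 52.3, 47.4, 41.2 and 46.4 CPM and Treg libraries at 179, 189, 171 and 175 CPM, a log2 fold change of 1.92 (SE 0.09, adjusted p = 4.2e-09). The counts of Tdg were not whole in any of the 16 libraries, so part of its reads was shared with other genes and its level is uncertain by that part.

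Mbd2 (ENSMUSG00000024513, chromosome 18), the methyl-CpG reader, changed least among the called genes. WT Tn libraries were at 156, 153, 160 and 144 CPM and WT Treg libraries at 138, 134, 135 and 127 CPM. The ranges did not overlap but lay side by side. The log2 fold change was -0.23 (SE 0.06, adjusted p = 0.0075), and the adjusted p was 0.055 without WT Treg replicate 4. Aim2-/- libraries were at 163, 153, 178 and 159 CPM in Tn and 138, 134, 133 and 141 CPM in Treg, a log2 fold change of -0.27 (SE 0.07, adjusted p = 0.0050).

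In Aim2-/- cells, 7 of the 9 genes passed (5 higher and 2 lower), where 79.3% of 13713 genes tested did (39.1% higher and 40.2% lower). The Tn and Treg libraries of 7 of the 9, all but Tet2 and Tet3, did not overlap, as was so for 74.8% of all genes. The Tn and Treg libraries of 7 of the 9, all but Tet2 and Tet3, did not overlap, as was so for 74.8% of all genes. The 5 genes that rose in WT rose here too, and Tet1 and Mbd2 fell in both. Both culture comparisons have their own libraries, so no control is shared between them. The test of whether the culture effect differed between genotypes is given with the genotype comparisons.

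**Figure D2:**
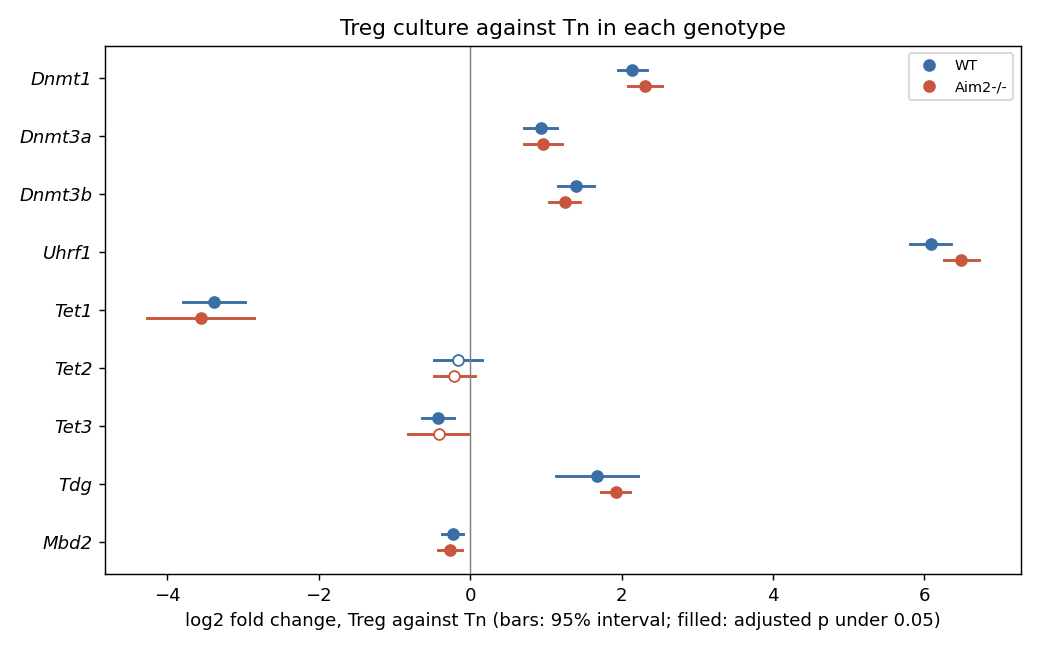
Log2 fold change of each gene in Treg against Tn cells, in WT (blue) and Aim2-/- (red), with 95% intervals; filled circles passed an adjusted p of 0.05. Uhrf1 stood at 6.08 and 6.49 and Tet1 at -3.38 and -3.56, with Tet2 open in both genotypes and Tet3 open in Aim2-/- cells.

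Compared per length (CPM per kilobase of the union of a gene's exons), the order of the 9 genes changed with culture. The order rests on the length assigned to each gene, and values for another length follow it. In WT Tn cells, Mbd2 led with 47.7 ± 2.09 (SD, n = 4) CPM per kb, followed by Dnmt1 at 21.7, Tdg at 9.86, Tet3 at 8.73, Dnmt3a at 5.19, Tet2 at 2.46, Dnmt3b at 2.15, Uhrf1 at 1.66 and Tet1 at 1.06. The ranges of Tdg and Tet3 overlapped, as did those of Tet2 and Dnmt3b, and the other neighbours were clear of each other. In WT Treg cells, Uhrf1 led with 115 ± 6.03 CPM per kb, followed by Dnmt1 at 97.9, Mbd2 at 41.5, Tdg at 32.1, Dnmt3a at 10.1, Tet3 at 6.65, Dnmt3b at 5.80, Tet2 at 2.24 and Tet1 at 0.103. Here Tet3 and Dnmt3b were the sole overlapping neighbours. Aim2-/- cells had the same order in both states, with 2 further overlaps in Tn, between Tet3 and Dnmt3a and between Uhrf1 and Tet1. With the median length of a gene's annotated transcripts, which is 820 bases for Dnmt3a, 773 for Tdg and 599 for Tet1 because short transcripts are listed, Mbd2 led in WT Tn at 203 CPM per kb, Tet1 was in place 6 at 27.4 and Uhrf1 was last at 2.08. In WT Treg at that length Tdg led at 223 CPM per kb, followed by Dnmt3a at 205 and Mbd2 at 177, with Uhrf1 in place 4 at 144 and Tet1 last at 2.67. With the longest coding transcript the order was that of the exon union in all 4 groups.

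**Figure D3:**
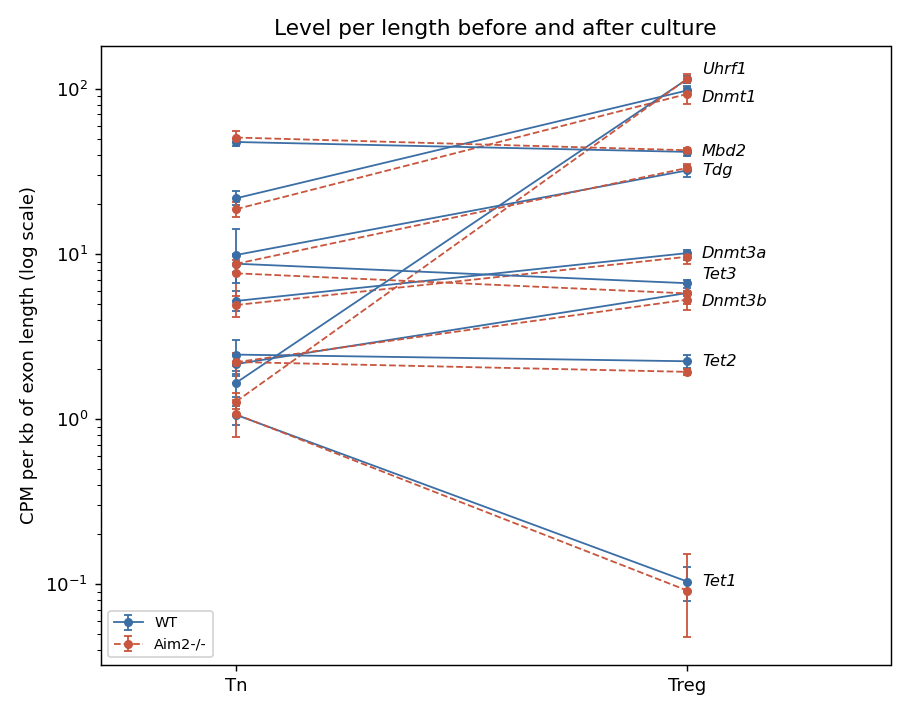
Mean level of each gene in Tn and Treg cells as CPM per kb of exon on a log axis, for WT (blue, solid) and Aim2-/- (red, dashed); bars run from the lowest to the highest of 4 libraries. At this length Uhrf1 went from the eighth place to the top and Tet1 stayed last, at 1.06 CPM per kb in WT Tn and 0.103 in WT Treg, whereas with the median transcript length Uhrf1 went from the last place to the fourth.

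Within the families, Dnmt1 made up 74.6 ± 2.87% (SD, n = 4) of the summed DNMT level per kb in WT Tn and 86.0 ± 0.457% in WT Treg, and 72.4 ± 1.66% and 86.2 ± 0.781% in the Aim2-/- groups. Tet1 made up 8.78 ± 1.68% of the summed TET level in WT Tn and 1.14 ± 0.190% in WT Treg, and 9.80 ± 0.466% and 1.14 ± 0.466% in the Aim2-/- groups. Tet3 made up 69.7% in Aim2-/- Tn to 74.0% in WT Treg. These shares depend on the length assigned to each gene. With the median transcript length Tet3 was 40.3% of the TET level in WT Tn and 37.8% in Aim2-/- Tn, where Tet1 was 39.7%, and it was 55.6% in WT Treg and 55.4% in Aim2-/- Treg. At that length Dnmt1 was 22.2% of the DNMT level in WT Tn and 39.3% in WT Treg, and Tet1 was 36.8% and 6.41% of the TET level. The share of Dnmt1 was higher and that of Tet1 lower in Treg than in Tn with either length.

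Genes known to work with the 9 were counted in lists in the WT culture comparison, where the median log2 fold change of all genes was -0.05. Of all genes tested, 37.7% were called higher and 39.2% lower in WT, and 39.1% and 40.2% in Aim2-/- cells. The counts of called genes in each list below stand beside these shares, and no list was tested as a set. Of 8 partners of the DNA methyltransferases, 7 were tested, with 2 higher, 2 lower, 3 not called and a median of 0.06. The 2 that rose, Hells (log2 fold change 5.005) and Cdca7 (4.41), form a chromatin remodelling complex needed for DNA methylation. Ehmt2, a histone methyltransferase, and Usp7, which stabilises DNMT1, were lower by small amounts (-0.21 and -0.18), and neither call was stable. Ehmt2 was at -0.09 (adjusted p = 0.18) in replicates 1 and 2 alone and was not called without any 1 of the 4 WT Treg libraries (adjusted p = 0.055 to 0.059). Usp7 was at -0.13 (adjusted p = 0.18) in replicates 3 and 4 alone, was not called by DESeq2 (adjusted p = 0.065), and was lost without any 1 of the WT Treg libraries (0.12 to 0.21). Dnmt3l, a catalytically inactive cofactor of the de novo enzymes, was listed at 0 in all libraries. In Aim2-/- cells 2 were higher, 1 lower and 4 not called.

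Among 7 genes listed as other readers of methylated CpG or as their relatives, 2 were higher, 4 lower and 1 not called in WT (median -0.22), with 3, 3 and 1 in Aim2-/- cells. Mbd4, a reader with glycosylase activity, rose by 1.23 on the log2 scale. Mbd3, a relative that is not taken here as a reader, rose by 0.80. Zbtb4 (-3.12) and Zbtb38 (-1.94), zinc finger proteins that bind methylated DNA, fell. Of 4 tested partners of the TET enzymes, none was higher and 2 were lower in either genotype (WT median -0.42). These were Cxxc5 (-1.87), a low-level CXXC zinc finger gene, and Idh2 (-0.54), which makes the cosubstrate of TET enzymes, whose change was -0.20 (adjusted p = 0.080) from replicates 1 and 2 alone.

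The base excision repair list, 13 genes all tested, had 6 higher, 4 lower and 3 not called in WT, and 5, 6 and 2 in Aim2-/- cells (medians 0.03 and -0.03). Neil3, a glycosylase of replicating cells, went from 1 to 8 counts per library in WT Tn to 855 to 1447 counts in WT Treg, and Ung, which excises uracil, rose by 1.98 on the log2 scale. Gadd45a (-3.56), a stress gene linked to demethylation, and the glycosylase Neil1 (-2.02) fell. In the methionine cycle, which supplies and clears the methyl donor, 4 of 6 genes were higher and 1 lower in both genotypes (WT median 0.87). Ahcy, which removes the inhibitory product of methylation, rose by 2.93 and Mat2a, which makes the methyl donor, by 1.16, while Mat2b, its regulatory subunit, fell by 0.66. Mat2a is listed under 2 identifiers with identical counts, so its level is uncertain.

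Of 6 genes with regions known to be demethylated in regulatory T cells, 5 were higher and 1 not called in both genotypes (WT median 2.502). Il2ra (8.68) and Foxp3 (7.41) rose most. Foxp3 was at 560, 574, 496 and 279 CPM in WT Treg and 560, 523, 329 and 288 CPM in Aim2-/- Treg, so that replicates 3 and 4 were the lower ones in both. Ctla4, the gene not called in WT, had a log2 fold change of 0.59 there (adjusted p = 0.36), with WT Tn replicates 3 and 4 far below the others. The gene not called in Aim2-/- cells stood at -0.08.

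All 16 S phase genes had positive log2 fold changes, and 15 of 16 were called higher in WT (median 3.32) and 16 of 16 in Aim2-/- cells (median 3.44), with Rrm2 (6.54) and Cdc6 (5.61) the largest in WT. The changes of Uhrf1 and Dnmt1 were measured in the same libraries in which these replication genes rose, and the part of cell division in them was not tested. Of 7 T cell marker genes 6 were lower in WT, among them Cd3g (-1.83) and Cd28 (-1.74, with -2.24 in replicates 1 and 2 alone and -0.88 in replicates 3 and 4 alone), and of 6 naive T cell genes all were lower, with Il7r at -6.00 and Klf2 at -3.61. Some non-T markers fell as well: Cd79a by 1.02 and Cd22 by 1.42 among 2 tested B cell genes, and Cd8b1 by 1.77. Of 3 tested myeloid genes 2 were lower, among them Itgam by 2.51, and the other was not called (0.10). The summed myeloid level averaged 28.4 CPM in WT Tn and 25.4 CPM in WT Treg. Cd22 was at -0.64 (adjusted p = 0.25) in replicates 1 and 2 alone and -2.23 (adjusted p = 0.026) in replicates 3 and 4 alone. It was not called with the replicate number as a block (adjusted p = 0.058), without WT Tn replicate 4 (0.058) or without WT Treg replicate 1 (0.050). Cd79a was not called in either pair alone (adjusted p = 0.052 and 0.088). Csf1r went from 19.1 to 74.0 counts in WT Tn to 0 in WT Treg, and of 2 erythroid genes tested, Hba-a2 went from 14.4 to 35.7 counts to 0 and Hbb-bs from 1.04 to 0.0145 CPM on average. The part of these rarer cells in the changes of the 9 genes was not tested.

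**Figure D4:**
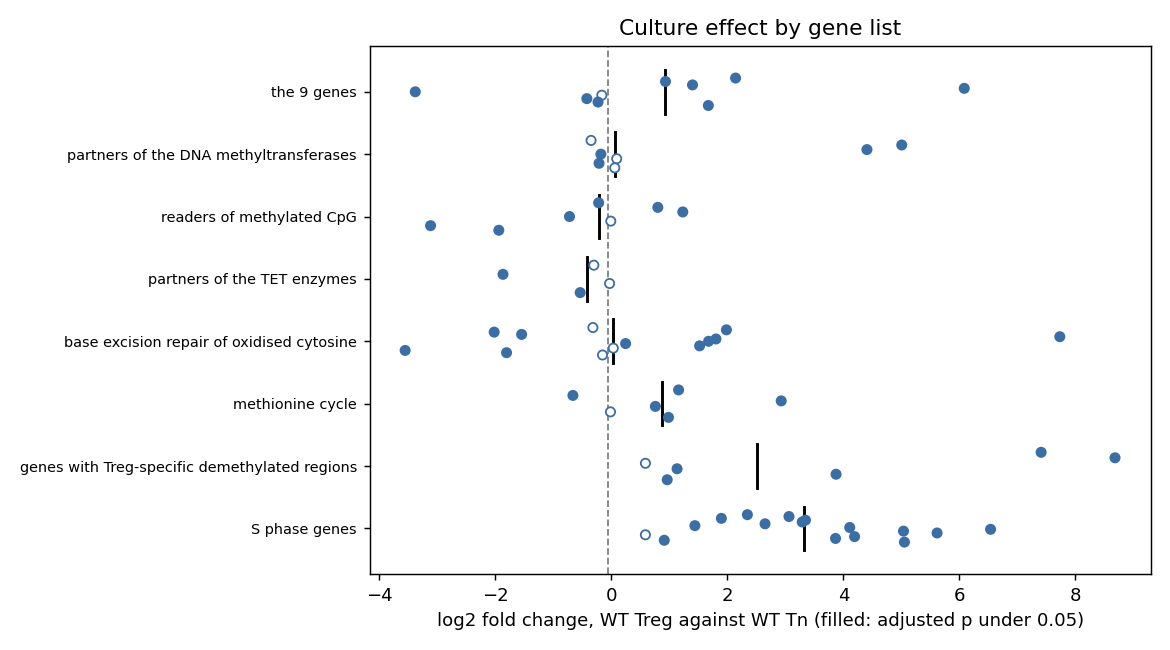
Log2 fold change in WT Treg against WT Tn for each tested gene of 8 lists, 1 point a gene, filled where the adjusted p was under 0.05; black bars mark list medians and the dashed line the median of all genes, -0.05. The 9 genes spread from -3.38 to 6.08, and the 16 S phase genes all lay above 0 with a median of 3.32.

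Genes with the pattern most like that of each member were sought among 14668 genes by the root mean square difference of centred log2 CPM over the 16 libraries, where 0 means identical. Mbd2 had close matches in Sri at 0.055 and Ten1 at 0.059. The pattern of Dnmt1 was nearest to Nup205 (0.093), Topbp1 (0.11) and Nup155 (0.11), and that of Tdg to Mcph1, Mcm4 and Urb2 (0.12 to 0.13). The nearest to Uhrf1 were Kif20a (0.18), Pif1 (0.21) and Trip13 (0.22). For Tet1 the nearest were Zfp831 (0.15), Orai2 (0.19) and Gm12474 (0.21). Dnmt3a lay nearest to Sec24a, Dhx9 and Fbxw11 (0.074 to 0.090), and Dnmt3b to Tgs1, Agpat3 and Akt1 (0.10 to 0.11). Tet2 lay nearest to Son, Hinfp and Usp36 (0.091 to 0.11), and Tet3 to Tulp4, Ino80d and Ankrd11 (0.099 to 0.11). All points share the same libraries and the difference between Tn and Treg. The measure is not scaled to the size of a gene's change, so distances cannot be compared between members.

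No called difference between Aim2-/- and WT cells was found in any of the 9 genes, either in Tn or in Treg. In Tn, 0 of 9 passed an adjusted p of 0.05 by edgeR, where 31 of 13441 genes did (0.231%), and 1 of 9 had an unadjusted p under 0.05 by edgeR, 1 by limma-voom and 2 by DESeq2, against 10.3% of all genes by edgeR. In Treg, 0 of 9 passed, where 29 of 13221 genes did (0.219%), and 1 of 9 had an unadjusted p under 0.05 by each of the 3 tools, against 2.31% of all genes by edgeR. limma-voom and DESeq2 called none of the 9 in either state. The WT and Aim2-/- libraries in these tests are the same as those in the culture comparisons.

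In Tn, Uhrf1 had the largest difference. Its level of 4.89 to 6.12 CPM in Aim2-/- Tn overlapped 5.78 to 7.98 CPM in WT Tn, and the log2 fold change was -0.37 (95% interval -0.70 to -0.04, adjusted p = 0.43 by edgeR). Dnmt1, at 124 to 153 CPM against 147 to 179 CPM, followed with -0.21 (95% interval -0.43 to 0.01, adjusted p = 0.49). It differed by -0.02 in replicates 1 and 2 alone and by -0.40 (adjusted p = 0.065) in replicates 3 and 4 alone. None of the 9 was free of overlap between genotypes in Tn, where 6.95% of genes were.

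Intervals of the remaining members in Tn all included 0. They ran from -0.57 to 0.20 for Tet3, -0.51 to 0.23 for Tet2, -0.35 to 0.39 for Tet1, -0.35 to 0.20 for Dnmt3a, -0.21 to 0.30 for Dnmt3b, -0.08 to 0.27 for Mbd2 and -0.72 to 0.37 for Tdg. Tdg, split among the WT Tn libraries, had the widest interval, with a difference of -0.47 in replicates 1 and 2 alone and 0.27 in replicates 3 and 4 alone. Tet1 likewise stood at 0.42 and -0.43 in the respective pairs. The B cell and erythroid lists were higher in Aim2-/- Tn, at summed levels of 2.44 to 3.12 CPM against 1.54 to 2.15 CPM and 5.55 to 8.08 CPM against 1.503 to 4.08 CPM, and their part in these values was not tested.

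In Treg, Tet2 was the gene of the 9 whose genotypes did not overlap, as did 2.26% of genes. Its level was 33.8, 31.0, 33.0 and 32.4 CPM in Aim2-/- Treg and 37.9, 41.0, 37.7 and 34.5 CPM in WT Treg. The highest Aim2-/- library lay just under the lowest WT library. The log2 fold change of -0.22 (SE 0.07, 95% interval -0.37 to -0.07) did not pass the adjustment over all genes (adjusted p = 1 by edgeR). Tet3 stood at -0.21 (95% interval -0.45 to 0.04) and Tet1 at -0.19 (95% interval -0.98 to 0.61), the latter unsettled by its low counts.

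Uhrf1 and the writers Dnmt1, Dnmt3a and Dnmt3b were close between genotypes in Treg. Uhrf1 differed by 0.00 on the log2 scale (95% interval -0.12 to 0.12), Dnmt1 by -0.07 (-0.25 to 0.10), Dnmt3a by -0.08 (-0.25 to 0.10) and Dnmt3b by -0.14 (-0.31 to 0.04). Mbd2 differed by 0.03 (-0.07 to 0.13) and Tdg by 0.05 (-0.09 to 0.18). None of the genes in the 7 pathway lists was called in either state.

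**Figure D5:**
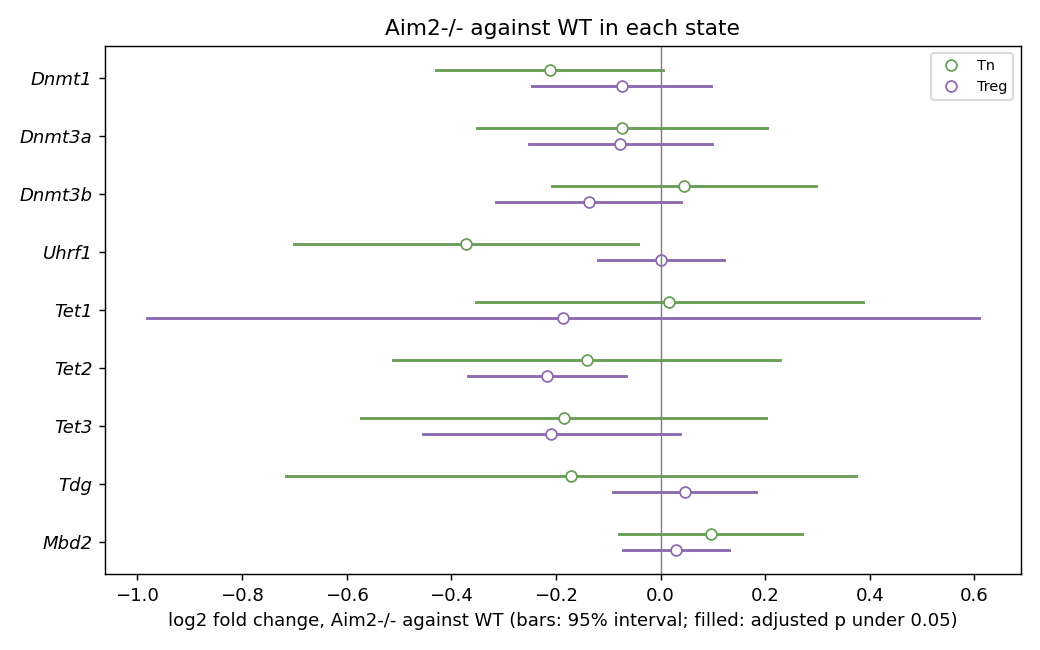
Log2 fold change of each gene in Aim2-/- against WT, in Tn (green) and Treg (purple), with 95% intervals; open circles did not pass an adjusted p of 0.05. All 18 circles are open, and the intervals that exclude 0 without adjustment are those of Uhrf1 in Tn (-0.70 to -0.04) and Tet2 in Treg (-0.37 to -0.07).

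Whether the genotype difference itself changed between Tn and Treg was tested as an interaction in 1 fit of all 16 libraries. None of the 9 genes passed, where 3 of 14669 genes did (0.0205%), and 1 of 9 had an unadjusted p under 0.05 by edgeR, limma-voom and DESeq2 alike, against 3.49% of all genes by edgeR. That gene was Uhrf1, whose genotype difference was higher in Treg than in Tn by 0.38 (95% interval 0.11 to 0.66, adjusted p = 1 by edgeR). Its WT Tn level of 7.06 CPM and Aim2-/- Tn level of 5.44 CPM met at 489 and 491 CPM in Treg. For Tet3, called in the WT culture comparison alone, the interaction was -0.01 (95% interval -0.47 to 0.45), so that a difference of its culture effect between genotypes was not shown.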

How the data were processed

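RNA from 16 libraries was compared in 4 groups of 4, with groups and replicate numbers taken from the labels. The authors prepared stranded mRNA libraries, sequenced single-end reads of 51 bases, aligned them to GRCm38 with STAR and quantified them with RSEM on GENCODE m15; tool versions and the strand setting are not given in the sources used here. They deposited the expected count of each gene per library, neither normalized nor filtered, which was rounded to whole numbers. Coordinates and exon lengths came from GENCODE M21 on GRCm38, which held 98.9% of the genes.

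Genes that reached 10 counts in 4 or more libraries of a comparison were tested in R 4.3.3 with edgeR 4.0.16 (two-sided quasi-likelihood F test, TMM, Benjamini-Hochberg adjustment over all genes tested, threshold 0.05), on the 8 libraries compared, or all 16 for the interaction. The edgeR test was used in place of the limma-voom test used by the authors, which also takes counts. limma-voom (limma 3.58.1), DESeq2 1.42.0, other scalings and filters, a replicate block, pairs of replicates and leaving out each library were tried as alternatives. Tests were checked on simulated data. Levels are TMM-scaled CPM. Total counts per library, 22516424 to 34533316, put 3 counts at 0.087 to 0.133 CPM, covering counting error only. Libraries were compared and none was a duplicate of another. Where a symbol had 2 identifiers, the one with more counts was used.

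The 9 genes and the lists were chosen with earlier results of these data known. Named in the text are all 9, per list the 2 called genes with the largest rise and the 2 with the largest fall in WT culture, any list gene called between genotypes, the 3 genes most like each member (1 of those for Mbd2 is not reported here), and Aim2. Ctla4, Cd4, Cst3, Ms4a1, S100a8 and Dnmt3l, and the genes with a promoter match, were named after their values were seen. Start regions came from RefSeq.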

Additional observations from a re-analysis of the deposited data

How the results depend on the processing

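Among the 9 genes no change between Tn and Treg turned its direction under any alternative, and leaving out 1 library gave 7 to 9 called genes in each genotype. The calls that changed in WT were Mbd2, lost without the filter on low counts (adjusted p = 0.065) or without WT Treg replicate 4 (0.055), and Tet2, gained without WT Tn replicate 3 (0.023). In Aim2-/- cells Tet3 was called by DESeq2 (0.046), with 10 counts required in every library (0.045) and with all 16 libraries in 1 fit (0.022), and Tet2 was gained (0.022) and Mbd2 lost (0.062) in replicates 1 and 2 alone. No alternative called any of the 9 between genotypes or in the interaction. Of the named list genes, WT calls of Ehmt2, Usp7, Idh2, Cd22 and Cd79a were lost under at least 1 alternative. The causes of these changes were not tested.

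Counts over all genes moved more. In Tn, 31 genes were called between genotypes, against 128 by DESeq2, 47 without a filter, 18 with 10 counts in every library, 64 in 1 fit of all 16 libraries, 499 in replicates 3 and 4 alone and 17 to 28 with 1 library left out. In Treg, 29 became 52 by DESeq2, 17 with 10 counts in every library, 5 in replicates 3 and 4 alone and 10 to 17 with 1 library left out. For the interaction, 3 became 10 by DESeq2, 0 with 10 counts in every library and 2 to 5 with 1 library left out. Differences near 0 between genotypes turned sign, none of them called. In Tn, Tet1 (0.02) became -0.0033 by limma-voom, -0.0066 with library totals as the scaling, -0.0072 without a filter and -0.43 in replicates 3 and 4 alone, and ran from -0.11 to 0.14 with 1 library left out. Tet3 was at 0.024 in replicates 1 and 2 alone. In replicates 3 and 4 alone Dnmt3b was at -0.11 and Tdg at 0.27, and with 1 library left out they ran from -0.014 to 0.11 and from -0.33 to 0.052. In Treg, Uhrf1 (0.0005) became -0.00018 by DESeq2, -0.00016 with DESeq2's size factors in edgeR, -0.021 with library totals, -0.00074 with 10 counts in every library and -0.013 in replicates 1 and 2 alone, and ran from -0.032 to 0.025 with 1 library left out. Tet1 was at 0.052 in replicates 1 and 2 alone and ran from -0.54 to 0.024. In the interaction, Tet3 was at 0.0064 by limma-voom, 0.0079 without a filter and 0.18 in replicates 3 and 4 alone, Dnmt3a at -0.011 with library totals, and Dnmt3b and Tdg at 0.0040 and -0.19 in replicates 3 and 4 alone. With 1 library left out the interaction ran from -0.17 to 0.094 for Tet3, -0.073 to 0.082 for Dnmt3a, -0.00038 to 0.38 for Tdg, -0.19 to 0.067 for Tet2 and -0.55 to 0.018 for Tet1.

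The labels link libraries of equal number by that number alone and name no batch. Deviations from the group means correlated at 0.0373 to 0.367 between genotypes in Tn and at -0.0397 to 0.157 between Tn and Treg. Between genotypes in Treg they correlated at 0.519, 0.329, -0.0168 and 0.456 for replicates 1 to 4. A factor shared by libraries of equal number was not tested. With the replicate number as a block, 8 of the 9 genes were called in each culture comparison, Tet3 in Aim2-/- cells among them (-0.39, adjusted p = 0.028), and 0 between genotypes, with Tet1 in Tn at -0.0037 and the interaction of Tet3 at 0.0014. Over all genes the block gave 10352 and 10859 calls for culture in WT and Aim2-/- cells, 29 and 41 between genotypes in Tn and Treg, and 2 for the interaction.

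Shares of a family depended on the length given to a gene. With the median transcript length Dnmt1 was 22.2% of the DNMT level in WT Tn, 20.6% in Aim2-/- Tn, 39.3% in WT Treg and 39.4% in Aim2-/- Treg, and Tet1 was 36.8%, 39.7%, 6.41% and 6.38% of the TET level. With the longest coding transcript, chosen after seeing the data, Dnmt1 was 70.3%, 68.1%, 83.5% and 83.7%, and Tet1 6.09%, 6.80% and 0.768% in the first 3 groups. Depth limited Tet1 in Treg most, where 1 library held 20 counts.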
